A study of Mus musculus with 12 samples.

Results

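A set of 8 genes of inflammasome sensing and execution was followed in sorted mouse bone marrow neutrophils: the sensors Nlrp3, Nlrc4, Aim2 and Nlrp12, the adaptor Pycard, the proteases Casp1 and Casp4, and the pore-forming gasdermin Gsdmd. They were taken by gene symbol, through the Ensembl identifier of each row, from a table of read counts, and made up 8 of its 37310 genes. Their identifiers in the table are ENSMUSG00000032691.7 for Nlrp3, ENSMUSG00000039193.7 for Nlrc4, ENSMUSG00000037860.8 for Aim2, ENSMUSG00000078817.2 for Nlrp12, ENSMUSG00000030793.3 for Pycard, ENSMUSG00000025888.5 for Casp1, ENSMUSG00000033538.7 for Casp4 and ENSMUSG00000022575.4 for Gsdmd. An inflammasome forms when a sensor in the cytosol detects a microbial product or cell damage and assembles, often through the adaptor ASC that Pycard encodes, a platform that activates the Casp1 protease. Casp1 cleaves the precursors of the cytokines encoded by Il1b and Il18 and cleaves Gsdmd, whose freed part forms pores in the plasma membrane. Mouse Casp4 binds bacterial lipopolysaccharide (LPS) in the cytosol and cleaves Gsdmd by a second route, and neutrophils are known to release the Il1b product through several of these routes.

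The study crossed genotype with treatment in 12 bulk RNA-seq libraries, 3 in each of 4 groups: Runx1KO LPS, Runx1KO vehicle, Control LPS and Control vehicle. All mice were of the C57BL/6 strain, and their age is not given in the labels. Neutrophils were sorted as CD11b+, Ly6G+, Siglec F- and F4/80- cells from crushed hind limb bones and kept for 2 h in a buffered salt medium with serum, with 100 ng/mL LPS or with vehicle. Runx1 encodes a transcription factor of blood cell development. How and in which cells Runx1 was deleted, and which part of the gene was lost, is not given in the labels. For the Control group the design text names LKS- cells, a term it does not explain, for which marrow of 1 Runx1f/f mouse was pooled with that of 1 Runx1f/- mouse, in which 1 Runx1 allele is mutated in the germline, whereas the sample labels name sorted neutrophils. Separate mice are not stated for the 3 libraries of any group, and the p-values therefore reflect only how far these libraries spread, which may be technical.

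Runx1 itself had 58.3, 68.6 and 43.7 CPM (counts scaled for sequencing depth and, by TMM, for library composition) in the Runx1KO LPS libraries 1, 2 and 3 and 60.5, 68.3 and 75.4 CPM in the Runx1KO vehicle libraries, against 32.3, 50.9 and 26.1 CPM in the Control LPS libraries and 36.8, 56.2 and 38.8 CPM in the Control vehicle libraries. The libraries labelled Runx1KO thus did not hold fewer Runx1 reads than those labelled Control (edgeR log2 fold change 0.64, SE 0.30, adjusted p 0.492 with LPS, and 0.63, SE 0.29, adjusted p 0.656 with vehicle). The deposited value sums reads over the whole gene, so it does not check a deletion of part of it, and Runx1KO and Control are used here as the labels of the libraries. Library totals were 19023610 to 26225169 counts, and TMM factors ran from 0.699 (Runx1KO LPS library 3) to 1.20. Neutrophil markers (12 of 12 in the table) summed to 169200 to 172300 CPM in Runx1KO LPS, 122800 to 158800 CPM in Runx1KO vehicle, 166300 to 194900 CPM in Control LPS and 166500 to 179700 CPM in Control vehicle. Monocyte and macrophage markers (12 of 12 in the table) summed to 240, 776 and 2233 CPM in the Runx1KO LPS libraries 1, 2 and 3, against 192 to 687 CPM in the other 9 libraries. Adgre1, which encodes the F4/80 antigen that the sort selected against, had 20.1, 318 and 1220.0 CPM in Runx1KO LPS and 24.8, 223 and 47.4 CPM in Runx1KO vehicle, against 16.4, 122 and 207 CPM in Control LPS and 15.5, 74.9 and 16.4 CPM in Control vehicle. In bulk RNA, fewer cells of a type and less RNA per cell cannot be told apart.

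Promoter sequences are shown for the 4 genes whose levels varied together across libraries (Nlrp3, Nlrc4, Casp1 and Casp4) and for Naip5 and Naip6, the partners of Nlrc4 described below. Each is the 250 bases before an annotated RefSeq start on GRCm38.p6, 5′ to 3′ on the strand of the gene. The table used held such sequence for 7 of the 8 genes, all but Gsdmd. Capitals mark matches, on either strand, to the RUNX letters TGTGGT, the NF-kB letters GGG and CC with any 5 bases between them, the PU.1 letters GAGGAA, the C/EBP letters TTGCNNAA or the interferon-response letters GAAA and GAAA with any 2 bases between them, and overlapping matches form 1 run of capitals. Nlrp3 has 2 annotated starts, with windows at chr11:59542436-59542685 on the plus strand and chr11:59541319-59541568 on the plus strand. The Nlrc4 window is chr17:74459109-74459358 on the minus strand, that of Casp1 is chr9:5298267-5298516 on the plus strand, and that of the first Casp4 start is chr9:5308599-5308848 on the plus strand. The Naip5 window is chr13:100247337-100247586 on the minus strand and the Naip6 window is chr13:100316617-100316866 on the minus strand.
Nlrp3 start 1: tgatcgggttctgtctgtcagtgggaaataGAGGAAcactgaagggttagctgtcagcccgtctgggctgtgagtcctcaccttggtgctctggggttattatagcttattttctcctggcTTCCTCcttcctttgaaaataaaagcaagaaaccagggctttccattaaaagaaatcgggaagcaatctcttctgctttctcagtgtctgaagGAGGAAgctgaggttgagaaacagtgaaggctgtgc
Nlrp3 start 2: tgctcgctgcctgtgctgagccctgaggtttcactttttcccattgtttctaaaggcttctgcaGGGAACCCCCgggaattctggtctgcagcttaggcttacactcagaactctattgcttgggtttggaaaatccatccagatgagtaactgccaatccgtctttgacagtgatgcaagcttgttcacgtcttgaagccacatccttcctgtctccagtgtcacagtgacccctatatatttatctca
Nlrc4: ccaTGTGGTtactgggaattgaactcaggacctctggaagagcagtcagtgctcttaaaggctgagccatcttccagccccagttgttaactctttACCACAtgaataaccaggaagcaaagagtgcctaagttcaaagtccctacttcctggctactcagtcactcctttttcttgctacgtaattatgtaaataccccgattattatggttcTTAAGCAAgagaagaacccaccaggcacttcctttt
Casp1: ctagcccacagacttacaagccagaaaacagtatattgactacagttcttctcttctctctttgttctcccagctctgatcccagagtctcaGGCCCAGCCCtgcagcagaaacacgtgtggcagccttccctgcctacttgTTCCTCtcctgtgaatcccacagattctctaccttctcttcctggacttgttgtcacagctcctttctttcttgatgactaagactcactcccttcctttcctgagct
Casp4: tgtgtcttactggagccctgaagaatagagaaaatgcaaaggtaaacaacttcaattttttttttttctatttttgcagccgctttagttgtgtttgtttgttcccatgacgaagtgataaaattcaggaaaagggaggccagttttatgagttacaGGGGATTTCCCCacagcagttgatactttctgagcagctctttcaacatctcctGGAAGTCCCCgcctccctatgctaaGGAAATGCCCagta
Naip5: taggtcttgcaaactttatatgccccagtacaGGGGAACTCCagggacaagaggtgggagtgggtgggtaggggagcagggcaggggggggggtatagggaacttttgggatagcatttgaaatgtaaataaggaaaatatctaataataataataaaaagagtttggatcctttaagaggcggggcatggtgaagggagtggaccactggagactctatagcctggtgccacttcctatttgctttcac
Naip6: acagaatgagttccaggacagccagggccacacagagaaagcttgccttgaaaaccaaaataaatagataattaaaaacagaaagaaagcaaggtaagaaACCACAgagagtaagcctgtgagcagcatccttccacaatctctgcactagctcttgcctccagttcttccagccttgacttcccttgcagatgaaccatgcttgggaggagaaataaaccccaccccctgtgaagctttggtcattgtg

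The RUNX letters were found 2 times before Nlrc4, beginning 247 and 154 bases before the start, and 1 time before Naip6, 150 bases before its start. They were in none of the other windows of the 8 genes or Naip5, and 14.0% of 32841 mouse promoter windows of this length held them. The NF-kB letters were found in 3 separate places before Casp4, the longest run of capitals beginning 93 bases before the start and matching on both strands. They were also in the windows of Casp1, Naip5 and the second Nlrp3 start, and in 45.8% of all windows. The PU.1 letters were in windows of 4 of the 7 genes, 3 times in the first Nlrp3 window, 2 times before Aim2 and 1 time each before Casp1 and Pycard, and 23.3% of all windows held them at least 1 time. C/EBP letters were found 1 time each before Nlrc4, Nlrp12 and Pycard (9.57% of all windows), and the interferon-response letters in none of these windows (2.98% of all windows). A match describes letters in a window and does not show binding, and a window with no match says nothing about a factor.

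Levels between genes were compared as mean CPM per kb of annotated exon (± SD, n = 3 libraries). In Runx1KO LPS libraries Casp4 and Nlrp3 had the highest means, 86.6 ± 70.8 and 83.1 ± 86.0 CPM per kb, followed by Gsdmd at 54.6 ± 16.2 and Casp1 at 34.3 ± 8.94 CPM per kb. Nlrc4, Nlrp12, Pycard and Aim2 came after them at 8.41 ± 9.23, 5.30 ± 3.70, 3.47 ± 1.53 and 2.71 ± 1.35 CPM per kb. Of the 7 neighbouring pairs in this order, only Casp1 and Nlrc4 differed by more than their SDs. The order in Runx1KO vehicle libraries began with Gsdmd at 54.5 ± 3.81 CPM per kb, then Casp4 at 31.5 ± 23.0, Nlrp3 at 24.1 ± 14.0, Casp1 at 20.0 ± 6.46, Nlrp12 at 10.7 ± 4.46, Pycard at 4.56 ± 1.90, Aim2 at 4.27 ± 3.16 and Nlrc4 at 1.90 ± 1.44 CPM per kb, and no neighbours stood apart by more than their SDs. In Control LPS libraries Nlrp3 led at 64.1 ± 28.7 CPM per kb, before Casp4 at 45.2 ± 8.79 and Gsdmd at 42.8 ± 9.90 CPM per kb, which did not stand apart. Casp1 at 21.8 ± 1.33 CPM per kb stood apart from both of its neighbours there, below Gsdmd and above Nlrp12 at 6.60 ± 1.72 CPM per kb, and Pycard, Aim2 and Nlrc4 followed at 4.20 ± 0.975, 3.53 ± 0.714 and 1.92 ± 1.56 CPM per kb. Control vehicle libraries had Gsdmd first at 45.3 ± 8.78 CPM per kb, then Nlrp3 at 27.2 ± 12.9, Casp4 at 21.4 ± 16.0, Casp1 at 16.2 ± 6.06 and Nlrp12 at 10.0 ± 1.04 CPM per kb. Pycard at 5.35 ± 1.10 stood below Nlrp12, and Nlrc4 at 0.262 ± 0.259 stood below Aim2 at 4.48 ± 1.76 CPM per kb, each by more than their SDs. By its mean, Gsdmd was therefore the first of the 8 in both vehicle groups and the third in both LPS groups. In no group did it differ from the neighbouring Casp4 or Nlrp3 by more than their SDs. Its own means with LPS and vehicle were 54.6 and 54.5 CPM per kb in Runx1KO and 42.8 and 45.3 CPM per kb in Control.

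Among the sensors, Nlrp3, which responds to loss of potassium from the cell and to membrane damage and whose transcription is known to be primed by LPS, had 47.6, 239 and 724 CPM in Runx1KO LPS libraries 1, 2 and 3, against 130.0, 131 and 32.2 CPM in Runx1KO vehicle libraries. In Control it had 171, 217 and 392 CPM with LPS, against 133, 148 and 50.3 CPM with vehicle. All 3 Control LPS libraries stood above all 3 Control vehicle libraries, whereas in Runx1KO library 1 with LPS lay below 2 of the 3 vehicle libraries and library 3 with LPS was the highest of all 12. Nlrc4, the platform for the NAIP proteins that bind bacterial flagellin and secretion system parts, had 4.24, 27.1 and 89.9 CPM in Runx1KO LPS libraries, against 11.3, 14.7 and 1.37 CPM in Runx1KO vehicle libraries. Its Control levels were 2.41, 7.99 and 17.2 CPM with LPS, against 0.924, 2.64 and 0.212 CPM with vehicle. Nlrc4 spanned the widest range of the 8, and its lowest value, in Control vehicle library 3, rests on 5 reads; the groups overlapped in both LPS comparisons. Aim2, which binds double-stranded DNA in the cytosol, had 4.32, 10.6 and 13.5 CPM in Runx1KO LPS libraries, against 6.64, 10.7 and 27.5 CPM in Runx1KO vehicle libraries. It had 9.52, 13.4 and 14.2 CPM in Control LPS libraries, against 9.32, 16.0 and 21.7 CPM in Control vehicle libraries. The groups of Aim2 overlapped in each comparison. Nlrp12, a NOD-like receptor best known for restraining inflammatory signalling, had 64.9, 45.2 and 9.84 CPM in Runx1KO LPS libraries, against 54.6, 69.0 and 119 CPM in Runx1KO vehicle libraries. Control libraries held 64.3, 46.0 and 39.1 CPM with LPS, against 73.5, 68.8 and 84.1 CPM with vehicle. Nlrp12 went the other way from Nlrp3: every Control LPS library lay below every Control vehicle library, and Runx1KO LPS library 3 was the lowest of the 12. Exons of Nlrp12 overlap those of small microRNA genes in the annotation on GRCm38, and the strand setting of the counting is not given, so reads of these genes cannot be told apart there.

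The adaptor gene Pycard had 19.6, 11.8 and 8.21 CPM in Runx1KO LPS libraries, against 10.4, 16.8 and 24.7 CPM in Runx1KO vehicle libraries. With LPS the Control libraries held 14.3, 20.2 and 13.3 CPM, against 16.8, 24.9 and 19.2 CPM with vehicle. The 4 groups of Pycard overlapped, and 485 bases of its exons lie opposite those of the predicted gene Gm45205, whose reads cannot be told apart from its own. Casp1, which matures the Il1b and Il18 products, had 38.7, 50.0 and 65.3 CPM in Runx1KO LPS libraries, against 30.2, 39.5 and 20.2 CPM in Runx1KO vehicle libraries. In Control it had 31.3, 35.0 and 31.8 CPM with LPS, against 29.4, 29.7 and 13.8 CPM with vehicle. The 3 Runx1KO LPS libraries were all above the 3 Control LPS libraries, and these were all above the 3 Control vehicle libraries. Casp4, the LPS-binding caspase, had 59.6, 319 and 585 CPM in Runx1KO LPS libraries, against 143, 185 and 21.5 CPM in Runx1KO vehicle libraries. Control libraries held 134, 199 and 170.5 CPM with LPS, against 95.4, 129 and 13.5 CPM with vehicle. The Control LPS libraries lay above the Control vehicle libraries, and both vehicle libraries numbered 3 were far below the vehicle libraries numbered 1 and 2. Gsdmd had 174, 115 and 101 CPM in Runx1KO LPS libraries, against 138, 120.2 and 130.4 CPM in Runx1KO vehicle libraries. Control libraries held 128, 92.8 and 83.9 CPM with LPS, against 127, 110.0 and 85.7 CPM with vehicle. Gsdmd was the steadiest of the 8, with all groups overlapping and a ratio of 2.07 between its highest and lowest library, against 4.72 for Casp1, 43.5 for Casp4 and 22.5 for Nlrp3.

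**Figure D1:**
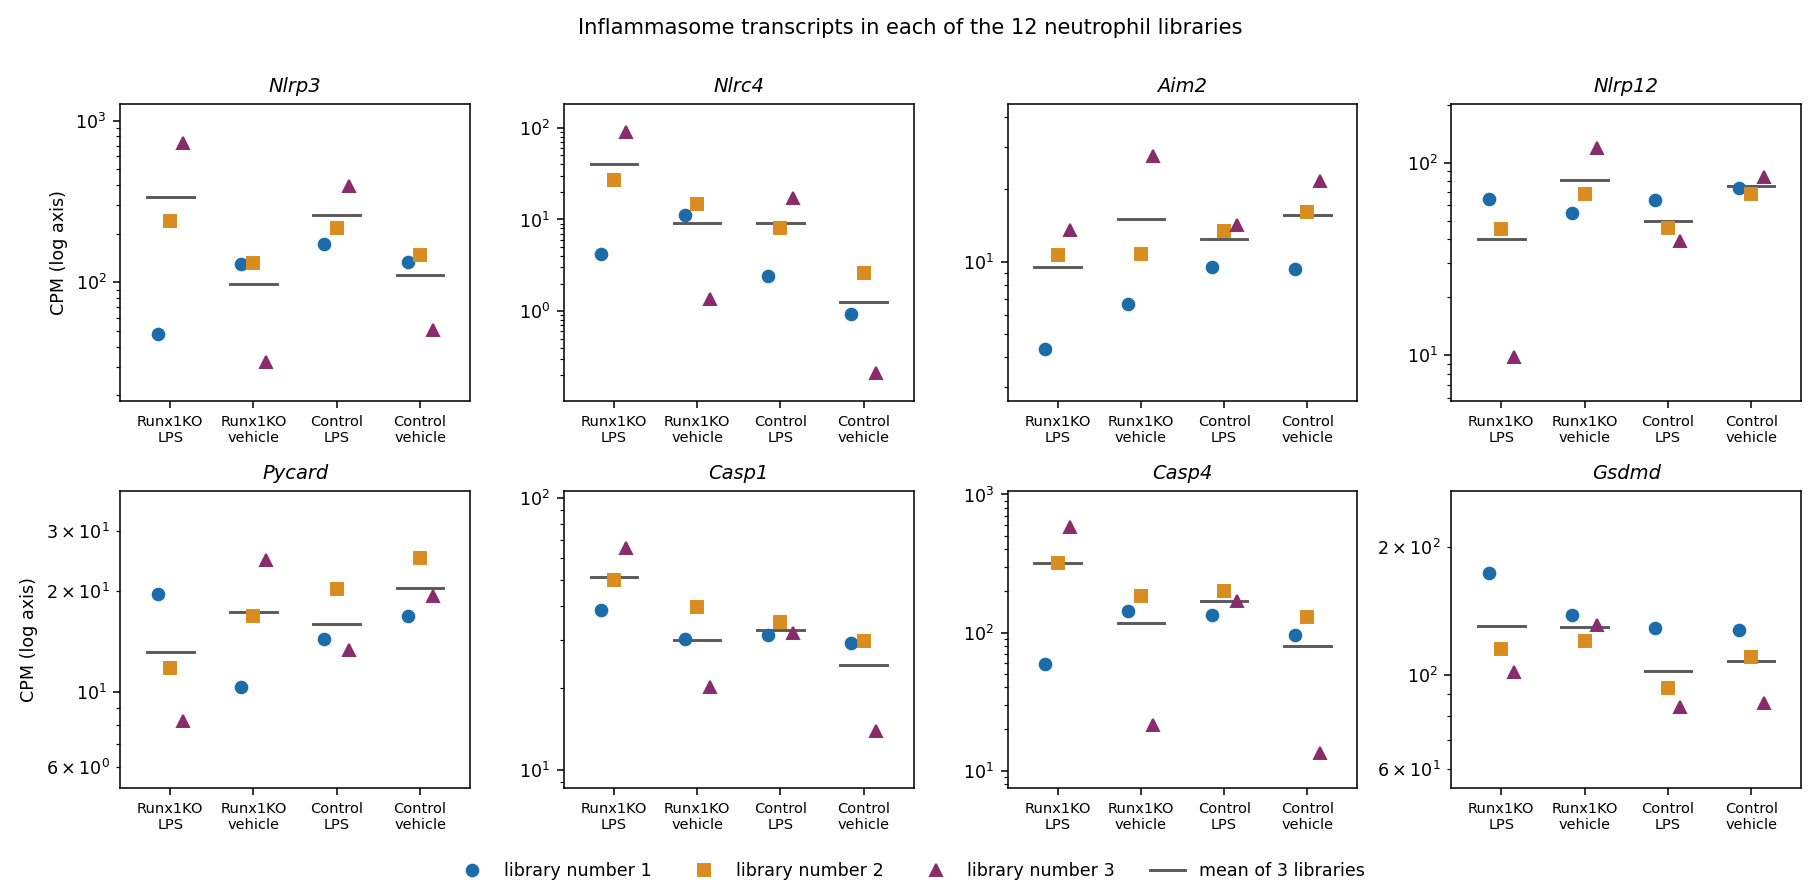
Level of each of the 8 genes in each of the 12 libraries, in CPM on a log axis, by group; the marker shape gives the library number from the labels and the horizontal line is the mean of 3 libraries. Nlrp3, Nlrc4 and Casp4 reach their highest value in Runx1KO LPS library 3 (724, 89.9 and 585 CPM), Nlrp12 has its lowest there (9.84 CPM), and Gsdmd stays between 83.9 and 174 CPM.

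The LPS comparisons address whether 2 h of LPS changed these transcripts in each genotype. In Runx1KO libraries the means of Nlrp3, Nlrc4, Casp4 and Casp1 were higher with LPS, 337 ± 349 against 97.8 ± 56.8 CPM for Nlrp3, 40.4 ± 44.4 against 9.11 ± 6.92 CPM for Nlrc4, 321 ± 263 against 117 ± 85.2 CPM for Casp4 and 51.3 ± 13.4 against 29.9 ± 9.68 CPM for Casp1 (SD, n = 3 each). Nlrp12, Aim2 and Pycard had lower means with LPS, and Gsdmd was level at 129.8 ± 38.6 against 129.6 ± 9.05 CPM. None of these differences passed the test: 0 of the 8 genes were called by edgeR's quasi-likelihood test at a Benjamini-Hochberg adjusted p below 0.05, as were 0 of all 12917 genes tested (0%). DESeq2 called 1 gene and limma-voom 0, with none of the 8 among them, and 1 of the 8 and 676 of all genes had an unadjusted p below 0.05.

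Nlrp3 had a log2 fold change of 1.78 (SE 0.82, a fold of 3.45) in Runx1KO, with an adjusted p of 0.873 by edgeR. That of Nlrc4 was 2.15 (SE 1.12, a fold of 4.44) and that of Casp4 1.46 (SE 0.91, a fold of 2.75), with the same adjusted p of 0.873 in edgeR's test. Casp1, the member with an unadjusted p below 0.05 (0.0407, edgeR), was higher by 0.78 (SE 0.34, adjusted p 0.873) on the log2 scale and was higher with LPS in 3 of 3 library numbers. This value ran from 0.32 without the libraries numbered 3 to 1.05 without those numbered 2. How many of all genes were higher in 3 of 3 library numbers was not computed. The other log2 fold changes were −1.01 (SE 0.53) for Nlrp12, −0.66 (SE 0.54) for Aim2, −0.39 (SE 0.38) for Pycard and 0.0026 (SE 0.28) for Gsdmd. No member separated the Runx1KO LPS libraries from the vehicle libraries, whereas 3.51% of all genes did upwards and 3.20% downwards (6.71% in either direction). Over the 8 genes the median log2 fold change was 0.39 and 5 were above 0, beside a median of 0.0279 and 52.6% above 0 over all genes tested.

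In Control libraries the same 4 genes had higher means with LPS, with smaller SDs in CPM than in Runx1KO. Relative to the mean, the SDs were smaller in Control for all 4 with LPS but only for Nlrp3 with vehicle. Nlrp3 averaged 260.2 ± 117 CPM with LPS and 110.4 ± 52.5 CPM with vehicle, Casp4 168 ± 32.6 and 79.3 ± 59.5 CPM, Casp1 32.7 ± 1.99 and 24.3 ± 9.07 CPM, and Nlrc4 9.21 ± 7.49 and 1.26 ± 1.25 CPM (SD, n = 3 each). Nlrp3, Casp1 and Casp4 were higher in every LPS library than in any vehicle library and Nlrp12 was lower in every LPS library, so that 3 of 8 members did not overlap upwards and 1 downwards, beside 2.84% and 2.32% of all genes (5.16% in either direction). Nlrp3, Casp1 and Casp4 vary together across libraries and Nlrp12 against them, so these are not 4 separate observations. By edgeR's quasi-likelihood test 0 of the 8 were called (0% of all genes, adjusted p 1 for each), as with DESeq2 and limma-voom, and 1 of the 8 and 78 of all genes had an unadjusted p below 0.05. That gene was Nlrc4, with a log2 fold change of 2.86 (SE 1.19, a fold of 7.27, unadjusted p 0.0338, edgeR). The log2 fold changes of the others were 1.24 (SE 0.81) for Nlrp3, 1.08 (SE 0.90) for Casp4, 0.43 (SE 0.34) for Casp1, −0.60 (SE 0.52) for Nlrp12, −0.35 (SE 0.38) for Pycard, −0.34 (SE 0.53) for Aim2 and −0.083 (SE 0.28) for Gsdmd. Their median over the 8 was 0.17, beside −0.0198 over all genes.

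**Figure D2:**
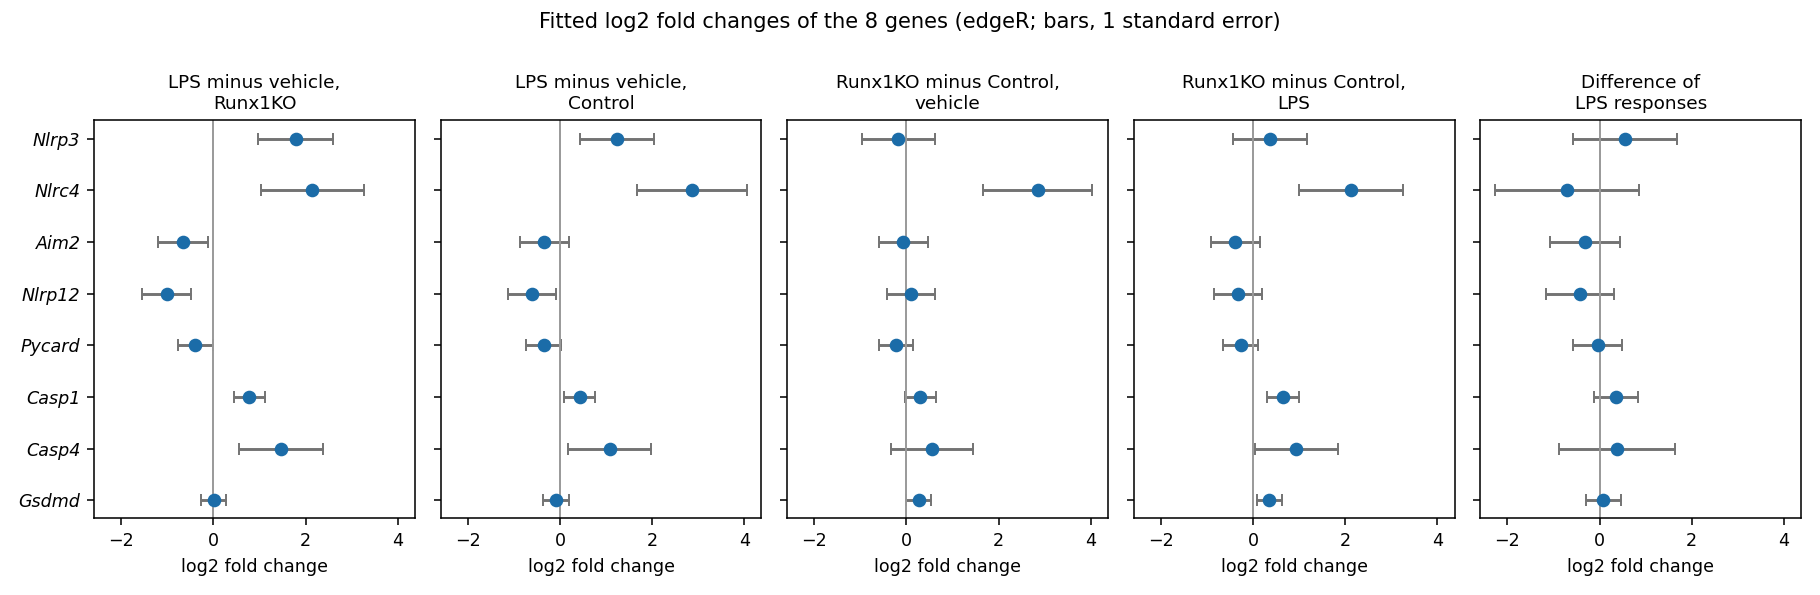
Log2 fold change of each of the 8 genes from edgeR in the 5 comparisons, with bars of 1 standard error; a positive value means higher with LPS, higher in libraries labelled Runx1KO, or a larger LPS difference in Runx1KO. Nlrc4 lies farthest from 0 in the first 4 panels, between 2.13 and 2.86, with standard errors of 1.12 to 1.19, and no gene passed an adjusted p of 0.05 in any panel.

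The LPS difference varied with the library number that the labels give. Taken between libraries of the same number, the LPS minus vehicle difference of Nlrp3 on the log2 CPM scale was −1.45, 0.86 and 4.49 for numbers 1, 2 and 3 in Runx1KO and 0.36, 0.56 and 2.96 in Control. Nlrc4 showed −1.40, 0.88 and 5.95 in Runx1KO and 1.30, 1.57 and 5.85 in Control. For Casp4 the differences were −1.27, 0.78 and 4.76 in Runx1KO and 0.49, 0.62 and 3.65 in Control. The libraries numbered 3 carried the largest difference of these 3 genes in both genotypes, and those numbered 1 in Runx1KO ran in the opposite direction. Casp1 was higher with LPS in all 6 of these pairs, by 0.36, 0.34 and 1.69 in Runx1KO and 0.091, 0.23 and 1.20 in Control. How many of all genes do so was not computed. Same-numbered libraries of both genotypes vary together, so the pairs are not 6 separate observations. Nlrp12 differed by 0.25, −0.61 and −3.58 in Runx1KO and −0.19, −0.58 and −1.10 in Control, again farthest from 0 at number 3. Pycard differed by 0.91, −0.51 and −1.58 in Runx1KO and −0.23, −0.30 and −0.53 in Control, Aim2 by −0.61, −0.017 and −1.02 and 0.030, −0.26 and −0.60, and Gsdmd by 0.33, −0.067 and −0.37 and 0.012, −0.25 and −0.031. Without the 4 libraries numbered 3, the edgeR log2 fold change in Runx1KO was 0.12 for Nlrp3, 0.25 for Nlrc4 and 0.19 for Casp4, and in Control 0.47, 1.55 and 0.58. Without those numbered 1 it was 2.51, 2.82 and 2.08 in Runx1KO, and again no member was called. Without Runx1KO LPS library 3 alone the Runx1KO values were 0.55, 0.78 and 0.70, and without Runx1KO LPS library 1 alone 2.30, 2.68 and 1.95. Runx1KO LPS library 3, the highest for Nlrp3, Nlrc4, Casp1 and Casp4, is also the library with the highest sum of monocyte and macrophage markers given above. In it 4 of the 12 markers were at their highest, the sum without Adgre1 was 1013 CPM against 175.8 to 519 CPM in the other 11 libraries, and the part of these markers in the values of the 8 genes was not tested.

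**Figure D3:**
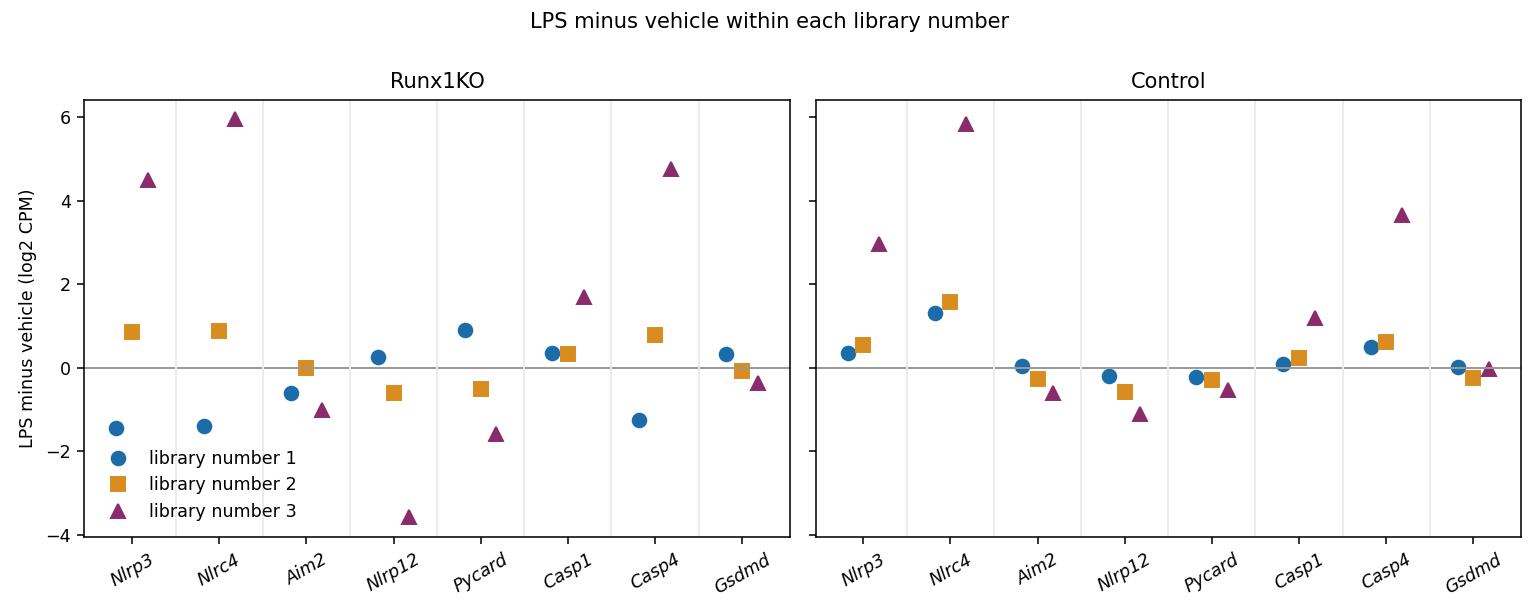
LPS minus vehicle difference in log2 CPM between the 2 libraries that share a number, for each gene, in Runx1KO (left) and Control (right). Number 3 gives the largest differences for Nlrp3, Nlrc4 and Casp4 (4.49, 5.95 and 4.76 in Runx1KO, 2.96, 5.85 and 3.65 in Control), and number 1 in Runx1KO is below 0 for all 3 (−1.45, −1.40 and −1.27).

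The genotype comparisons address whether the libraries labelled Runx1KO differed from those labelled Control under each treatment. With vehicle, Nlrc4 averaged 9.11 ± 6.92 CPM in Runx1KO libraries and 1.26 ± 1.25 CPM in Control libraries, a fold of 7.18, and with LPS 40.4 ± 44.4 CPM in Runx1KO and 9.21 ± 7.49 CPM in Control, a fold of 4.38 (SD, n = 3 each). Within each library number Nlrc4 was higher in Runx1KO, by 3.49, 2.44 and 2.28 log2 CPM with vehicle and by 0.80, 1.75 and 2.38 with LPS for numbers 1, 2 and 3, or 6 of 6 pairs. The groups nevertheless overlapped, since the libraries of 1 group spread widely, from 1.37 to 14.7 CPM in Runx1KO vehicle and from 0.212 to 2.64 CPM in Control vehicle. How many of all genes agree in 6 of 6 pairs was not computed. Control libraries of the same number vary together between treatments, so the pairs are not 6 separate observations. By edgeR's test the log2 fold change was 2.84 (SE 1.19, adjusted p 0.548) with vehicle and 2.13 (SE 1.12, adjusted p 0.58) with LPS, so neither passed. With the library number as a block the edgeR values were 3.12 (adjusted p 0.297) and 2.00 (adjusted p 0.427). With the block and without the libraries numbered 3, an alternative chosen after seeing the data, the vehicle value was 3.19 at an edgeR adjusted p of 0.0243, and without numbers 1 or 2 the adjusted p was 0.582 and 0.756. Without Runx1KO LPS library 3 alone, the LPS value was 0.76 (edgeR adjusted p 0.946).

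Casp1 averaged 51.3 ± 13.4 CPM in Runx1KO LPS libraries and 32.7 ± 1.99 CPM in Control LPS libraries (SD, n = 3 each), and every Runx1KO library was above every Control library, as for 6.51% of all genes. The log2 fold change of 0.65 (SE 0.34) had an adjusted p of 0.569 in edgeR's test, and with vehicle it was 0.30 (SE 0.34) with overlapping groups. Casp4 differed by 0.56 (SE 0.89) with vehicle and 0.94 (SE 0.90) with LPS. For Gsdmd the values were 0.27 (SE 0.28) under vehicle and 0.35 (SE 0.28) under LPS. Casp1 and Gsdmd were each higher in Runx1KO in 6 of 6 pairs of the same number and treatment, and Casp4 in 5 of 6. The share of all genes with such agreement was not computed. Control libraries of the same number vary together between treatments, so these are not 6 separate observations. Nlrp3, by contrast, was lower in Runx1KO in all 3 vehicle pairs, with a log2 fold change of −0.17 (SE 0.80), and with LPS had 0.37 (SE 0.80), which became −0.86 without Runx1KO LPS library 3. Aim2 had −0.066 (SE 0.53) with vehicle and −0.38 (SE 0.54) with LPS, Pycard −0.23 (SE 0.38) and −0.27 (SE 0.38), and Nlrp12 0.10 (SE 0.52) and −0.32 (SE 0.52). None of the 8 genes was called by edgeR, DESeq2 or limma-voom in either comparison, beside 0.952% of all genes called by edgeR with vehicle (0.348% higher and 0.604% lower, 45 and 78 genes) and 0.921% with LPS (0.348% higher and 0.573% lower, 45 and 74 genes). No member separated the genotypes with vehicle and 1, Casp1, did with LPS, beside 13.2% (5.42% higher and 7.82% lower) and 13.3% (6.51% higher and 6.76% lower) of all genes. At an unadjusted p below 0.05 there were 1 of the 8 (Nlrc4) with vehicle and 0 with LPS. With the number as a block 2.44% of all genes were called with vehicle and 2.34% with LPS (315 and 302 genes), and 0 of the 8. The blocked counts over all genes were 42, 1 and 233 with vehicle and 39, 0 and 195 with LPS when number 1, 2 or 3 was left out. The median log2 fold change of the 8 was 0.18 with vehicle and 0.36 with LPS, beside 0.0025 and 0.0306 over all genes.

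Naip5 and Naip6 encode flagellin receptors that assemble with the Nlrc4 protein, and they stand in the list of other sensors. Naip5 had 48.8, 25.3 and 27.2 CPM in Runx1KO LPS libraries, against 17.9, 14.8 and 15.5 CPM in Control LPS libraries. With vehicle it had 46.0, 28.3 and 27.6 CPM in Runx1KO libraries, against 13.7, 14.1 and 14.8 CPM in Control libraries. All 6 Runx1KO libraries were above all 6 Control libraries, and the Runx1KO libraries numbered 1 were the highest. Naip6 had 28.7, 13.3 and 16.3 CPM in Runx1KO LPS libraries, against 6.21, 6.07 and 8.90 CPM in Control LPS libraries. Its vehicle levels were 30.1, 14.7 and 13.4 CPM in Runx1KO libraries, against 6.51, 6.35 and 6.68 CPM in Control libraries. Again all 6 Runx1KO libraries lay above all 6 Control libraries. Within a single treatment, 5.42% of all genes with vehicle and 6.51% with LPS were higher in every Runx1KO library than in any Control library. The share of all genes that separates all 6 from all 6 was not computed. Naip5 and Naip6 were chosen because a fit to these same libraries called them between genotypes, so their separation is not independent of that choice. In edgeR's test without a block the log2 fold change of Naip5 was 1.26 (SE 0.30, adjusted p 0.0808) with vehicle and 1.07 (SE 0.30, adjusted p 0.155) with LPS, and that of Naip6 was 1.57 (SE 0.37, adjusted p 0.0828) and 1.46 (SE 0.37, adjusted p 0.116), so none passed.

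With the library number as a block, edgeR called Naip5 higher in Runx1KO in both treatments, by 1.20 (adjusted p 0.0224) with vehicle and 1.02 (adjusted p 0.0439) with LPS. It called Naip6 higher with vehicle, by 1.49 (adjusted p 0.0393), while with LPS the value of 1.38 had an adjusted p of 0.0543. DESeq2 without a block called both genes in both treatments, at adjusted p of 0.00416 and 0.0325 for Naip5 and 0.00427 and 0.0141 for Naip6, with vehicle and LPS in turn. The block calls did not hold without the libraries numbered 1 or 2 (adjusted p 0.14 to 0.422), and without number 3 they held with vehicle (adjusted p 0.0442 for each) and not with LPS. Without a block but also without Runx1KO LPS library 1, both genes passed with vehicle (edgeR adjusted p 0.0298 for Naip5 and 0.0417 for Naip6). Naip2, which encodes the receptor for the rod of bacterial secretion systems, had 48.9, 35.1 and 58.4 CPM in Runx1KO LPS, against 34.4, 35.0 and 43.8 CPM in Control LPS, and 45.8, 32.4 and 65.5 CPM in Runx1KO vehicle, against 37.7, 38.0 and 65.7 CPM in Control vehicle. Naip2 overlapped between genotypes, with log2 fold changes of 0.33 (SE 0.32) with LPS and 0.022 (SE 0.32) with vehicle. Naip5 and Naip6 share part of their sequence: 16.6% of the stretches of 60 bases in Naip5 transcripts also occur in Naip6 transcripts and 12.6% the other way round. Naip2 shared less. Its transcripts held 6.36% of the Naip5 stretches and 4.49% of the Naip6 stretches, and Naip5 transcripts held 6.75% of the Naip2 stretches. How the counting treated reads of shared stretches was not found in the sources used, so the values of these 3 genes are uncertain to that extent.

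Levels of the sort antigen and of markers of other cell types are given here for the labelled genotypes. Ly6g, which encodes the antigen of the sort, had 351, 156 and 158 CPM in Runx1KO LPS, against 471, 395 and 400.0 CPM in Control LPS. With vehicle it had 106, 154 and 152 CPM in Runx1KO, against 418, 418 and 381 CPM in Control (edgeR log2 fold change −1.56, SE 0.33, adjusted p 0.0521), and with LPS the log2 fold change was −0.93 (SE 0.33, edgeR adjusted p 0.315). Markers of megakaryocytes and platelets (7 of 7 in the table) summed to 28.8 to 44.5 CPM in Runx1KO LPS and 31.2 to 37.1 CPM in Runx1KO vehicle, against 2.33 to 7.07 CPM in Control LPS and 1.56 to 2.90 CPM in Control vehicle. Basophil and mast cell markers (6 of 6 in the table) summed to 1.26 to 2.92 and 1.20 to 1.98 CPM in Runx1KO LPS and vehicle, against 3.54 to 25.7 and 5.83 to 25.3 CPM in Control LPS and vehicle. B lineage markers (9 of 9 in the table) were highest in Runx1KO LPS library 3, at 303 CPM against 30.7 to 197 CPM elsewhere. Erythroid markers (7 of 7) summed to 967, 1527 and 197 CPM in Runx1KO LPS libraries 1, 2 and 3 and 889, 1365 and 106.5 CPM in Runx1KO vehicle. In Control these sums were 625, 220 and 185 CPM with LPS and 569, 190 and 145 CPM with vehicle. Summed T and NK cell, eosinophil and dendritic cell markers stayed at or below 38.6 CPM in every library. No marker of these lists was at 0 in all 12 libraries, and their part in the Nlrc4, Naip5 and Naip6 values was not tested.

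**Figure D4:**
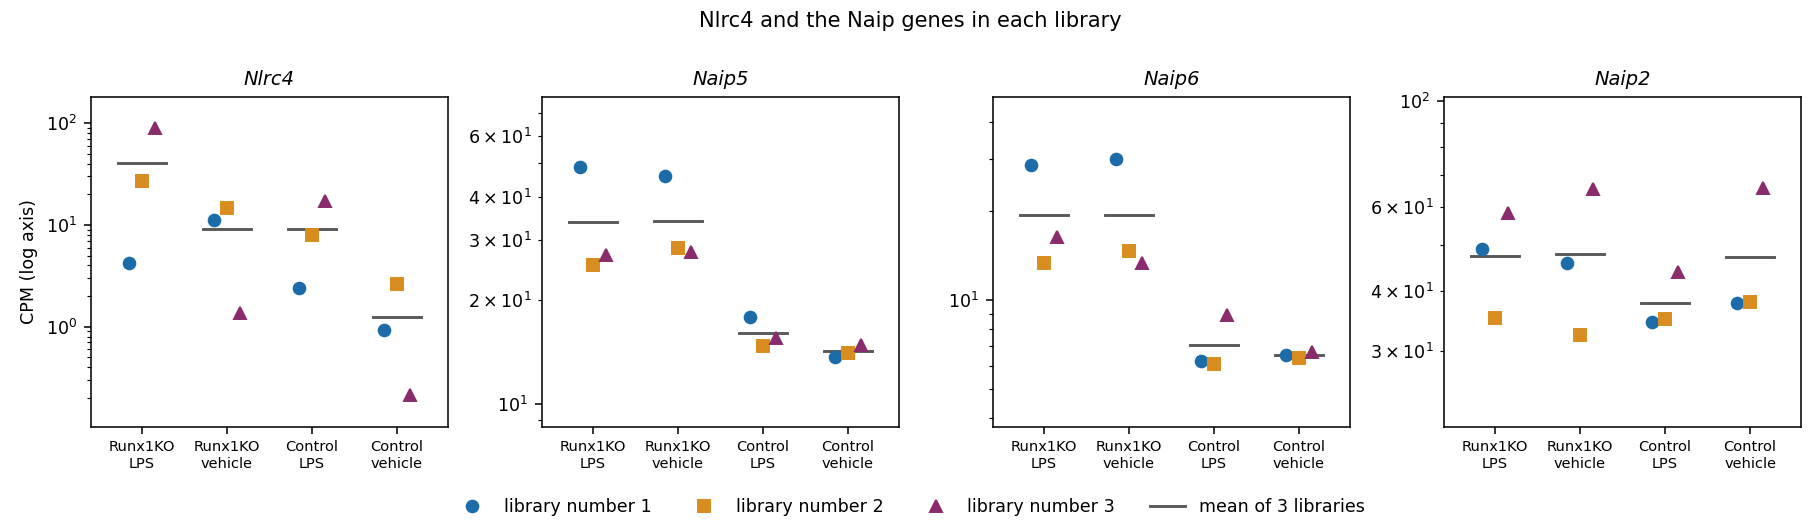
Levels of Nlrc4 and of the NAIP receptor genes Naip5, Naip6 and Naip2 in each library, in CPM on a log axis, by group; the marker shape gives the library number and the horizontal line is the mean of 3 libraries. For Naip5 the 6 libraries labelled Runx1KO lie between 25.3 and 48.8 CPM and the 6 labelled Control between 13.7 and 17.9 CPM, whereas Nlrc4 and Naip2 overlap between genotypes.

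The difference of the LPS responses, the test of whether LPS acted differently in the 2 genotypes, was called for 0 of the 8 genes and 0% of all genes by edgeR, and for 0 by DESeq2 and limma-voom. No member and 77 of all genes had an unadjusted p below 0.05. The difference, Runx1KO minus Control, was 0.55 (SE 1.13) for Nlrp3, −0.71 (SE 1.56) for Nlrc4, 0.38 (SE 1.26) for Casp4 and 0.35 (SE 0.48) for Casp1 on the log2 scale. For Nlrp12, Aim2, Gsdmd and Pycard it was −0.42 (SE 0.74), −0.32 (SE 0.75), 0.085 (SE 0.39) and −0.041 (SE 0.53). Standard errors ran from 0.39 for Gsdmd to 1.56 for Nlrc4, and the size of difference detectable at this spread is not reported here. A difference that was not called is therefore not shown to be absent.

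The wider pathway was described with 3 lists: other sensors (12 of 14 tested, Nlrp6 and Nlrp9b had too few reads), activation partners and regulators (21 of 22, Gbp5 was not analysed here) and substrates and executioners (10 of 10). No gene of these lists passed edgeR's test without a block in any of the 5 comparisons, and with the block Naip5 and Naip6, given above, were the only ones called (2 of 12 other sensors higher with vehicle and 1 with LPS, beside 0.883% and 0.906% of all genes). In Runx1KO with LPS the median log2 fold changes of the 3 lists were 0.077, 0.18 and −0.13, and in Control −0.10, 0.0218 and −0.0899, beside 0.0279 and −0.0198 over all genes. Between genotypes the medians were −0.0521, 0.0011 and 0.33 with vehicle and 0.43, 0.13 and 0.56 with LPS, beside 0.0025 and 0.0306 over all genes.

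Il1b, whose product Casp1 matures, had 3939, 5464 and 14339 CPM in Runx1KO LPS libraries, against 3458, 3649.9 and 265 CPM in Runx1KO vehicle libraries. In Control it had 5279, 4532 and 6959.7 CPM with LPS, against 4671, 3319.7 and 1023 CPM with vehicle. The Runx1KO LPS libraries were all above the vehicle libraries, as for 3.51% of all genes, and both vehicle libraries numbered 3 were the lowest of their groups. Its log2 fold change was 1.69 (SE 0.82) in Runx1KO and 0.90 (SE 0.81) in Control with LPS, and −0.29 (SE 0.80) with vehicle and 0.50 (SE 0.80) with LPS between genotypes, with edgeR adjusted p values of 0.873 to 1. Il18, the other Casp1 substrate of the list, was low, at 0.556 to 4.36 CPM over the 12 libraries, with log2 fold changes of −0.10, −0.18, −0.26 and −0.18 in the same order (SE 0.82 to 0.83). The difference of LPS responses was 0.79 (SE 1.13) for Il1b and 0.076 (SE 1.17) for Il18. Il1a, an interleukin released by dying cells, had 90.5, 345 and 1876 CPM in Runx1KO LPS libraries, against 292, 136 and 2.00 CPM in Runx1KO vehicle libraries. In Control it had 173, 112 and 166 CPM with LPS, against 117, 50.0 and 4.10 CPM with vehicle. Il1a thus followed the pattern of Nlrp3 and Casp4, with its lowest values in the vehicle libraries numbered 3, and its log2 fold changes with LPS were 2.43 (SE 1.43) in Runx1KO and 1.40 (SE 1.38) in Control. Over fits that leave out libraries, the value in Runx1KO went down to 0.38 for Il1b and 0.0066 for Il1a. At the low end of this list in Control stood the granule proteases Prtn3 and Elane (−0.72 and −0.52).

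Among the other sensors, Mefv, which encodes pyrin, had 6.59, 80.0 and 269 CPM in Runx1KO LPS libraries, against 14.0, 51.1 and 6.69 CPM in Runx1KO vehicle libraries. In Control it had 23.6, 128 and 164 CPM with LPS, against 22.3, 81.4 and 11.5 CPM with vehicle. Its log2 fold changes of 2.31 (SE 1.19) and 1.45 (SE 1.15) stood at the high end of the list in both genotypes, with overlapping groups. Over fits that leave out libraries they ran from 0.40 to 3.74 in Runx1KO and from 0.56 to 2.47 in Control. Nod2, a receptor for bacterial cell wall fragments, had 20.3, 29.8 and 94.9 CPM in Control LPS libraries, against 14.1, 18.6 and 10.2 CPM in Control vehicle libraries. All Control LPS libraries lay above the vehicle libraries, as for 2.84% of all genes. The log2 fold change of Nod2 was 1.76 (SE 0.81) there, and in Runx1KO it was 0.78 (SE 0.79). Nod1, a related receptor, had 1.32 (SE 0.59) in Runx1KO, and Nlrx1, a NOD-like receptor of mitochondria, had −0.98 (SE 0.46) in Runx1KO and −0.37 (SE 0.46) in Control. Nlrc5, an activator of MHC class I genes, and Naip2 completed the low end with −0.089 (SE 0.44) in Runx1KO and −0.32 (SE 0.32) in Control. Leaving out libraries moved the Runx1KO values to between 0.25 and 2.04 for Nod1 and between −1.60 and −0.11 for Nlrx1, and the Control value of Nod2 to between 0.63 and 2.24. Between genotypes, chosen after their values were seen, Nod2 had 109.9, 95.7 and 18.8 CPM in Runx1KO vehicle libraries, against 14.1, 18.6 and 10.2 CPM in Control vehicle libraries. All Runx1KO libraries were higher there, as for 5.42% of all genes. The log2 fold change of Nod2 was 2.39 (SE 0.83, edgeR adjusted p 0.331), and with LPS it was 1.41 (SE 0.80, edgeR adjusted p 0.626). Nlrc5 had 1.80, 3.23 and 2.75 CPM in Runx1KO LPS libraries, against 11.3, 6.47 and 5.51 CPM in Control LPS libraries. All Runx1KO libraries were lower there, as for 6.76% of all genes. The log2 fold change of Nlrc5 was −1.58 (SE 0.45, edgeR adjusted p 0.172), and with vehicle it was −1.05 (SE 0.44, edgeR adjusted p 0.554), so neither gene passed. Of the partners, Gbp2, a guanylate-binding protein that acts on bacterial surfaces, had 1.56 (SE 0.80; 0.43 to 2.25 over fits that leave out libraries) in Runx1KO and 0.92 (SE 0.79; 0.19 to 1.38) in Control. Txnip, an inhibitor of thioredoxin, had 734, 1109 and 842 CPM in Runx1KO LPS libraries, against 1778, 1313 and 1577 CPM in Runx1KO vehicle libraries. Every Runx1KO LPS library was below every vehicle library for Txnip, as for 3.20% of all genes. Its log2 fold changes were −0.80 (SE 0.44) in Runx1KO and −0.32 (SE 0.43) in Control. The interferon receptor genes Ifnar2 (0.62 in Runx1KO, 0.068 to 1.02 over the same fits) and Ifnar1 (0.36 in Control) were at the high end, and the death-signalling kinase genes Ripk1 (−0.19 in Runx1KO) and Ripk3 (−0.33 in Control) at the low end. Exons of Il1b, Il1a, Prtn3, Nlrx1, Nlrc5, Gbp2, Txnip, Ripk1 and Ifnar2 overlap those of other genes, so reads of the shared bases have the limit given for Pycard. The overlap was small for Il1b (25 of 1907 exon bases), Gbp2 (24 of 2516) and Nlrc5 (78 of 8493). It was larger for Il1a (222 of 1974), Prtn3 (159 of 1732), Nlrx1 (683 of 5750), Txnip (606 of 3123) and Ifnar2 (315 of 3329). For Ripk1 it was 511 bases on the same strand and 241 on the other, of 8344.

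Within groups, the 8 genes fell into a block that varied together and others that did not. Over the 12 libraries, as deviations of log2 CPM from the group mean, Pearson's r was 0.95 between Nlrp3 and Nlrc4, 0.91 between Nlrp3 and Casp4, 0.91 between Nlrc4 and Casp4 and 0.96 between Casp1 and Casp4. Casp1 was at 0.80 with Nlrp3 and 0.83 with Nlrc4. Nlrp12 ran against this block, at −0.87 with Nlrp3, −0.80 with Nlrc4, −0.68 with Casp4 and −0.58 with Casp1. Pycard did so less, at −0.75 with Nlrp3, −0.57 with Nlrc4, −0.56 with Casp4 and −0.39 with Casp1. Gsdmd had r of −0.49 with Nlrp3, −0.49 with Nlrc4, −0.20 with Casp4, −0.0275 with Casp1 and 0.56 with Nlrp12. Aim2 lay between −0.26 and 0.0777 with Nlrp3, Nlrc4, Casp1 and Casp4, and Aim2 and Gsdmd had an r of −0.70. Naip5 and Naip6 followed each other (0.89) and neither followed Nlrc4 (−0.36 and −0.0441). These are descriptions of 12 libraries that share library number, depth and a few extreme members, above all Runx1KO LPS library 3 and the vehicle libraries numbered 3, and they carry no p.

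**Figure D5:**
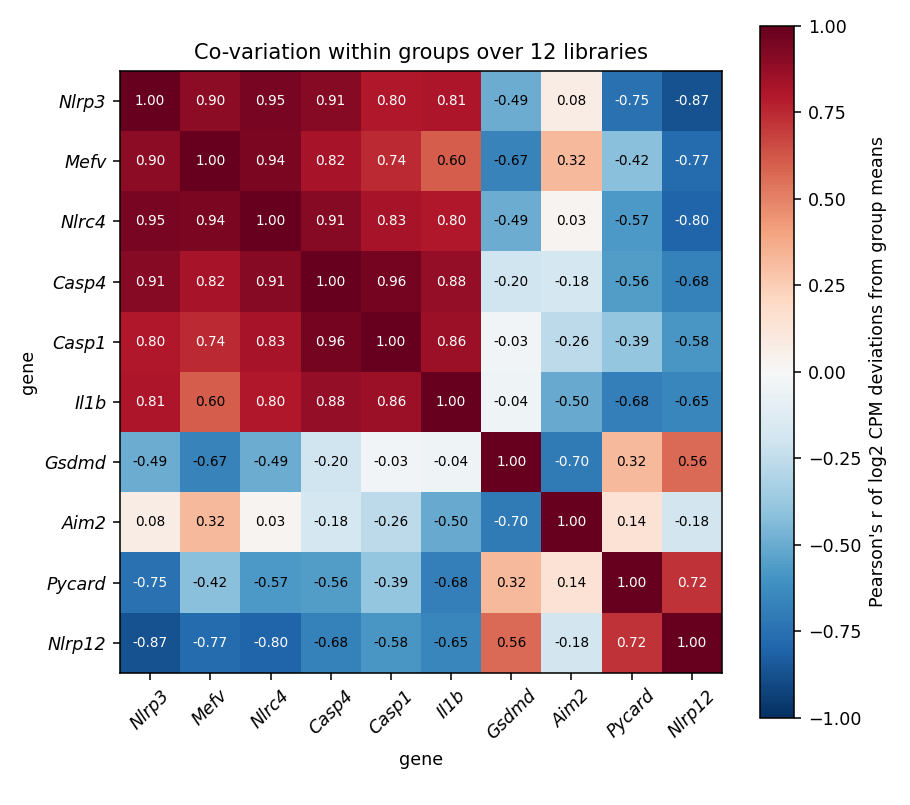
Pearson's r between genes of log2 CPM deviations from group means over 12 libraries, for the 8 genes with Mefv and Il1b; red is positive and blue negative. Nlrp3, Mefv, Nlrc4, Casp4, Casp1 and Il1b form a block of positive values from 0.60 to 0.96, and Nlrp12 is negative with each of these 6 genes.

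Of 7544 other named genes whose mean log2 CPM was 2 or more, those whose log2 CPM over the 12 libraries was most like each member were named by Pearson's r, as a description. For Nlrp3 they were Cd40 (0.99), Gm12840 (0.98) and Rab11fip1 (0.97), and for Nlrc4 Zeb2 (0.97), Pstpip2 (0.97) and Saa3 (0.96). Casp4 was closest to Dusp16 (0.99), Marcksl1 (0.98) and Icam1 (0.98), and Casp1 to Steap4 (0.96), Cxcl10 (0.95) and Pip5k1b (0.95). Aim2 was closest to Map3k5 (0.97), Abcg1 (0.96) and Tnrc6a (0.95), Nlrp12 to Narf (0.96), Zfp36l2 (0.95) and Atxn7l1 (0.95), Pycard to Xpa (0.97), Tmub1 (0.93) and Vsir (0.92), and Gsdmd to H13 (0.95), Ctps2 (0.95) and Glul (0.95). No gene was in the lists of 2 members.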

How the data were processed

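Read counts per gene of 12 libraries were used as the authors deposited them, as whole-number counts that are not normalized. Per the submitters' processing notes, the tools were STAR 2.6.0a and featureCounts and the build was mm9; annotation release, strand setting and filters on reads were not found in the sources used. ERCC spike-ins, which the labels' protocols mention, were not analysed here. Columns were tied to samples through the titles, and 0 count columns were left over. Gene symbols came from a separate list of gene names, and exon lengths (all annotated exons joined, which understates levels per kb where exons are rarely used), exon overlaps and shared stretches from a GENCODE annotation on GRCm38, used with no coordinates. Reads carry no molecular identifiers.

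Genes were kept with filterByExpr of edgeR 4.0.16 in R 4.3.3 (12917 of 37310, all 8 members among them), scaled by TMM and tested with quasi-likelihood fits of 1 model that held all 4 groups, with 5 contrasts and Benjamini-Hochberg adjustment over all genes tested, threshold 0.05. The procedure was run on simulated data as a check of the code. How many changed genes it recovers at the spread of these data is not reported here. The prior count of log2 CPM was 2. The smallest two-sided p of an exact permutation test with 3 against 3 libraries is 0.1. The members and lists were chosen with earlier results of these data known. Of each list the 2 highest and 2 lowest log2 fold changes with LPS in each genotype were named, among genes whose mean log2 CPM was 2 or more, with Il1b and Il18 throughout; the low end of the substrate list in Runx1KO is not reported here. Naip5 and Naip6 were named because the fit with the number as a block called them.

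Whether the library numbers pair the groups was checked by correlating deviations from group means over all genes tested. Same-numbered libraries had r of 0.479, 0.374 and 0.461 between genotypes with vehicle, 0.565, 0.429 and 0.445 with LPS, 0.667, 0.659 and 0.394 between treatments in Control, and 0.314, 0.537 and 0.00575 between treatments in Runx1KO. All pairs were above 0.1 in 3 of these 4 comparisons, so for them the blocked value is given beside a result where it changes a call. The labels do not say what a number stands for. The alternatives were RLE factors, library size alone, no filter on low counts, DESeq2 1.42.0, limma-voom (limma 3.58.1), the number as a block, and each number left out, to which fits without Runx1KO LPS library 1 or 3, and with the block and a number left out, were added after seeing the data.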

Additional observations from a re-analysis of the deposited data

How the results depend on the processing

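No member was called in any of the 5 comparisons under the settings planned, and of 240 member values under settings that kept all libraries 230 kept their direction. The replicate block changed no member call and, in the lists, made the 3 calls of Naip5 and Naip6 given above; it raised calls over all genes from edgeR's 45 higher and 78 lower with vehicle to 114 and 201, and from 45 and 74 with LPS to 117 and 185. By deviations from group means, and among libraries of the other groups only, all 12 libraries correlated best with a library of their own number. DESeq2 gave 158 and 228 with vehicle, 175 and 226 with LPS, and 1 lower for LPS in Runx1KO; library size alone gave 50 lower with vehicle. Leaving out libraries gave 0 to 56 higher and 1 to 115 lower with vehicle, and 0 to 56 higher and 2 to 79 lower with LPS, fewest without all 4 libraries of a number (2, 1 and 6 genes with vehicle without numbers 1, 2 and 3, and 3, 4 and 25 with LPS), where fewer libraries were tested; without Runx1KO LPS library 3 alone the LPS counts were 28 and 34. Library size alone moved the median log2 fold change of all genes with LPS to −0.281 in Runx1KO, −0.14 in Control and −0.149 in their difference, and members are read against those.

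Some values changed sign, among them Nlrp3 between genotypes with LPS and the Casp4 difference of responses. For LPS in Runx1KO, Gsdmd became −0.0051 with RLE, −0.27 with library size alone, −0.033 without a filter, −0.0049 with DESeq2, −0.037 with limma-voom and −0.041 with the replicate block; Naip6 became −0.0063, −0.26, −0.031 and −0.0061 under the first 4. With library size alone Naip6 for LPS in Control became −0.010, Aim2 between genotypes with vehicle 0.048, and the difference of responses −0.081 for Gsdmd and −0.27 for Il18. With limma-voom Il18 between genotypes with vehicle became 0.046, Nlrp3 with LPS −0.26, and the difference of responses −0.17 for Casp4 and −0.34 for Il18. With the replicate block Il18 became 0.0070 for LPS in Control, 0.0013 between genotypes with vehicle and −0.28 in the difference of responses. The cause was not tested.

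Over fits that leave out libraries, log2 fold changes that changed sign ranged as follows. For LPS in Runx1KO they were −0.27 to 0.15 for Gsdmd, −0.32 to 0.24 for Nlrc5, −1.09 to 0.27 for Il18, −0.38 to 0.13 for Naip5, −0.39 to 0.12 for Naip6, −1.08 to 0.18 for Pycard and −0.58 to 0.0095 for Ripk1. For LPS in Control they were −0.45 to 0.36 for Il18 and −0.0624 to 0.23 for Naip6. Between genotypes with vehicle they were −0.50 to 0.14 for Aim2, −0.16 to 0.34 for Nlrp12 and −0.59 to 0.28 for Il18. With LPS they were −0.86 to 0.89 for Nlrp3, −0.86 to 0.14 for Nlrp12, −0.75 to 0.0089 for Pycard, −0.25 to 0.82 for Il1b and −1.18 to 0.25 for Il18. In the difference of responses they were −0.70 to 1.06 for Nlrp3, −0.97 to 0.17 for Nlrp12, −0.71 to 0.45 for Pycard, −0.39 to 0.87 for Casp4, −0.19 to 0.23 for Gsdmd, −0.68 to 0.0267 for Aim2 and −0.93 to 0.45 for Il18.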
